A study of Mus musculus with 12 samples.

Results

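Cellular iron handling was followed in mouse kidney tubule cells through 9 genes, *Tfrc*, *Fth1*, *Ftl1*, *Slc40a1*, *Slc11a2*, *Ireb2*, *Aco1*, *Ncoa4* and *Steap3*. They were chosen by symbol, and all 9 were found among the 55487 genes of the count table. The cells were im-TEC, a conditionally immortalized mouse tubular epithelial line, kept at 33 °C with interferon-gamma and then held for 7 days at 37 °C without it to lower the activity of the SV40 large T antigen. All groups shared a medium with 10% serum that also held transferrin (5 µg/mL), insulin, selenite, triiodothyronine, hydrocortisone and EGF. For 48 h the cells were left untreated (control) or received TGFβ (10 ng/mL), NNMTi (50 µM of 5-amino-1-methylquinolinium, which inhibits the enzyme NNMT), or both agents (the combined group), with 3 libraries in each of the 4 groups. TGFβ is a cytokine that drives fibrotic change in tubule cells, and NNMT methylates nicotinamide.

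Iron bound to transferrin enters cells through the transferrin receptor, which *Tfrc* encodes. In the endosome STEAP3 reduces ferric iron and the divalent metal transporter, encoded by *Slc11a2*, moves it to the cytosol. Iron that is not used is stored in ferritin, a shell of heavy chains (*Fth1*), which oxidise iron, and light chains (*Ftl1*), which help mineralise it. NCOA4 carries ferritin to the lysosome for breakdown, and ferroportin (*Slc40a1*) exports iron from the cell. The RNA-binding iron regulatory proteins, encoded by *Aco1* and *Ireb2*, bind hairpins called iron-responsive elements when iron is scarce. In a 5′ UTR the bound hairpin blocks translation, and in the 3′ UTR of *Tfrc* it protects the mRNA from decay. Proximal tubule cells take up filtered iron carriers, and in mice the heavy chain of ferritin in these cells is known to limit acute kidney injury.

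The hairpin sequences are shown because they mark which of the 9 genes matched a strict form of this hairpin, in a 5′ UTR or in a 3′ UTR. They were searched in the coding transcripts of GENCODE M21 (mouse build GRCm38) as an unpaired C, 5 bases, the loop CAGUGN with a last base other than G, and 5 bases that pair with the first 5, followed by at least 3 more pairs. Only the transcript strand was searched, and the loop is in capitals below. A match in a UTR was found in 12 of 21901 coding genes (0.0548%), and 4 of the 9 members held 7 of these matches. The 3′ UTR of *Tfrc* held 4, at chr16:32631220-32631246, chr16:32631599-32631625, chr16:32631664-32631690 and chr16:32631711-32631737 on the plus strand.
Tfrc 3′ UTR, site 1: auuaucggaagCAGUGCcuuccauaau
Tfrc 3′ UTR, site 2: auuaucgggagCAGUGUcuuccauaau
Tfrc 3′ UTR, site 3: uauaucggagaCAGUGAucuccauaug
Tfrc 3′ UTR, site 4: auuaucgggaaCAGUGUuucccauaau
Fth1 5′ UTR: uccugcuucaaCAGUGCuugaacggaa
Ftl1 5′ UTR: ucuugcuucaaCAGUGUuugaacggaa
Slc40a1 5′ UTR: aacuucagcuaCAGUGUuagcuaaguu
The *Fth1* match lies at chr19:9982733-9982759 on the plus strand, the *Ftl1* match at chr7:45459780-45459806 on the minus strand and the *Slc40a1* match at chr1:45925466-45925492 on the minus strand. *Alas2*, the erythroid enzyme of haem synthesis, was among the other genes with a match. No match in the other 5 members, *Slc11a2* among them, says only that this pattern was not found in these transcripts. Hairpins of another form were not searched, so a member may hold iron-responsive elements beyond those shown. The libraries measured mRNA abundance, so use of these hairpins in translation was not measured.

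Counts assigned to genes ranged from 2584117 in TGFβ replicate 3 to 11866903 in TGFβ replicate 2, so that 3 counts corresponded to 0.253 to 1.16 CPM, the count scaled to a common library size. TGFβ replicate 2 stood apart from the other libraries of its group, with chi-square values of 31.6 and 40.8 per degree of freedom against them, where all other replicate pairs lay between 3.23 and 12.5. Called changes of the 9 genes that rest on the TGFβ group are therefore also given without it. Of 16 markers of kidney epithelium, 3 had no count, among them *Slc34a1* and *Epcam*, while *Pax8*, *Pax2*, *Cdh16* and *Aqp1* were present. Their summed level was 1980 to 2140 CPM in the controls, 1920 to 1940 with NNMTi, 710 to 1040 with TGFβ and 665 to 691 in the combined group. The drop came mostly from *Aqp1*, a water channel gene, which averaged 1059, 992, 24.9 and 11.1 CPM in the same order, while *Krt8*, an epithelial keratin gene, averaged 65.5, 27.2, 283 and 188 CPM. *Krt18* averaged 0.736 CPM in the controls and 3.70 CPM with TGFβ. Without *Aqp1*, a sum added after seeing the data, the other 15 markers held 948 to 1030 CPM in the controls, 914 to 957 with NNMTi, 689 to 1030 with TGFβ and 657 to 680 in the combined group, so that the TGFβ libraries overlapped the controls. That sum includes the rise of *Krt8*, and single markers fell. From the controls to TGFβ, *Pax2* averaged 304 and 140 CPM, *Cdh16* 223 and 74.7, and *Pax8* 231 and 181. *Krt8*, *Krt18*, *Cubn*, *Hnf4a* and *Cdh1* averaged higher with TGFβ, all but *Krt8* at 3.70 CPM or less. The part of these markers in the changes of *Tfrc* and *Fth1* was not tested. Of 5 fibroblast markers, *Pdgfra* and *Lum* had no count, and the summed level was 0.63 to 1.76 CPM in the controls, 0 to 1.1 with NNMTi, 11.9 to 15.9 with TGFβ and 2.13 to 4.08 CPM in the combined group. Of 6 macrophage markers 3 had no count (*Adgre1*, *Cd163* and *C1qa*), and the summed level, most of it from *Csf1r*, was 76.9 to 82.9 CPM in the controls, 59.0 to 71.5 with NNMTi, 41.2 to 58.2 in the TGFβ libraries and 24.8 to 30.5 CPM in the combined ones. In bulk libraries, fewer cells of a type and less RNA per cell cannot be told apart. *Nnmt* itself, whose enzyme the inhibitor targets, averaged 26.2 CPM in the controls, 19.2 with NNMTi, 29.0 with TGFβ and 25.9 CPM with both. It passed the test only for the combined group against NNMTi (log2 difference 0.44, edgeR adjusted p = 0.0396), and its mRNA level does not show whether the enzyme was inhibited.

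All 9 members passed the filter on low counts. Each library reads 1 end of each transcript, so CPM were not divided by gene length. The ferritin genes were by far the most abundant members, with means over the 12 libraries of 742 CPM for *Ftl1* and 714 CPM for *Fth1*, at rank 104 and 106 of 13581 tested genes. *Tfrc* and *Ireb2* followed with 69.6 and 69.5 CPM, then *Slc11a2* with 49.8 CPM, *Aco1* with group means of 17.3 to 19.2 and *Slc40a1* with 14.0 CPM. *Steap3* (7.51 CPM) and *Ncoa4* (4.87 CPM) were the lowest, with as few as 15 and 8 counts in the shallowest library, which limits what could be detected for both.

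**Figure D1:**
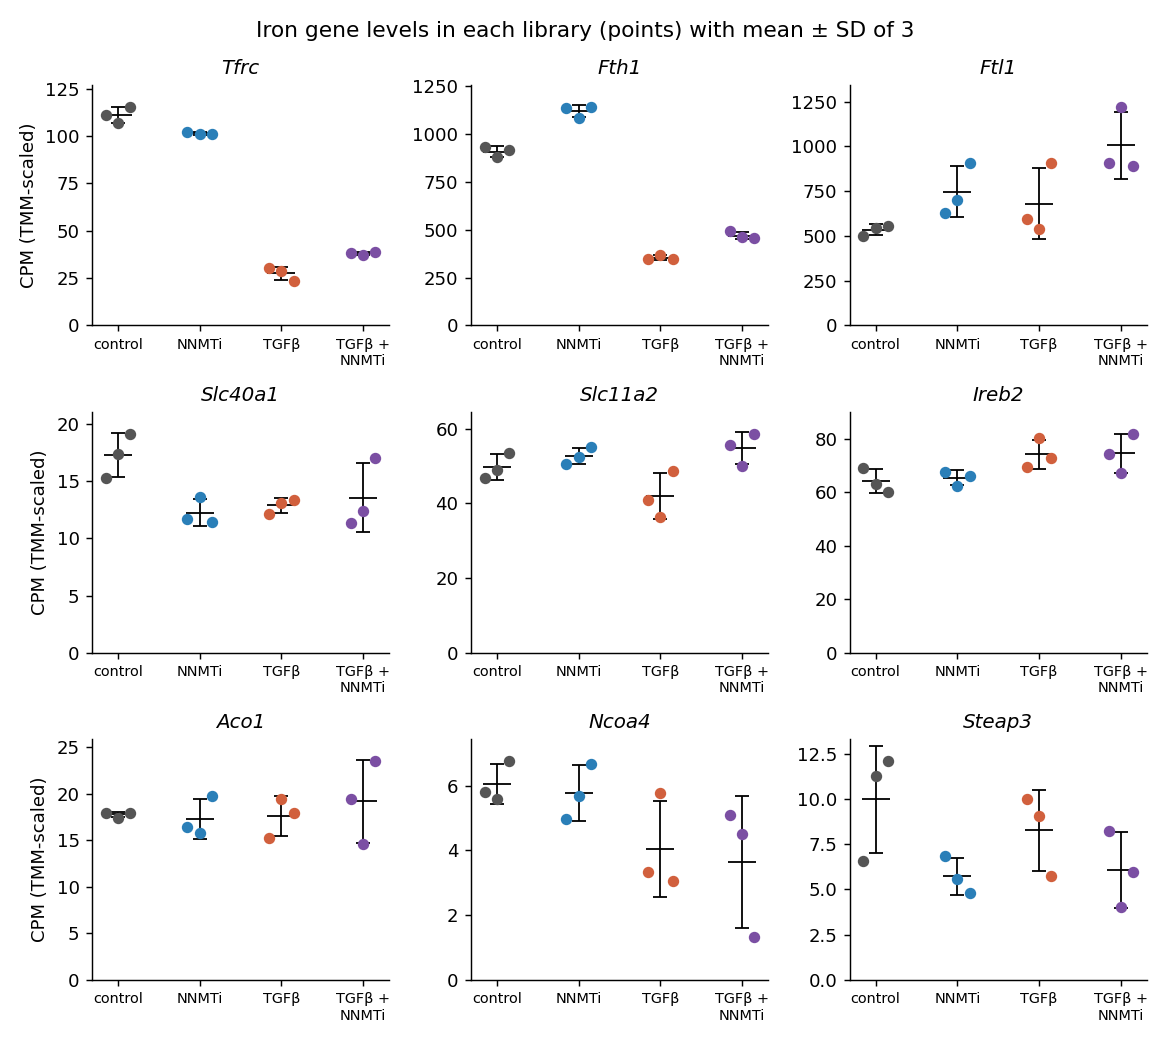
Level of each of the 9 iron genes in CPM (y axes, linear and starting at 0) in the 12 libraries, by group. Points are libraries and bars are the mean ± SD of 3, and the *Tfrc* and *Fth1* libraries with TGFβ, alone or with NNMTi, all lie below those without it.

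With TGFβ alone, the mRNAs of the transferrin receptor and of heavy-chain ferritin fell, and no member was called higher. *Tfrc* (chr16:32608920-32632794, plus strand, ENSMUSG00000022797) measured 111, 107 and 115 CPM in the controls and 30.3, 29.0 and 23.7 CPM with TGFβ. The groups lay far apart. The mean fell from 111 ± 4.38 to 27.6 ± 3.46 CPM (SD, n = 3 each), a 3.94-fold decrease (log2 change -1.98 ± 0.11 SE, edgeR adjusted p = 1.02e-10), and 306 of the 13581 tested genes (2.25%) fell at least as far. Its rank by level moved from 1819 in the controls to 6225 with TGFβ.

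*Fth1* (chr19:9980598-9985098, plus strand, ENSMUSG00000024661) measured 933, 880 and 915 CPM in the controls and 347, 371 and 348 CPM with TGFβ. No library overlapped between the groups. The mean fell from 909 ± 27.0 to 355 ± 13.5 CPM (SD, n = 3 each), 2.56-fold (log2 change -1.36 ± 0.09 SE, edgeR adjusted p = 6.04e-10), and 4.92% of tested genes fell at least as far. Without TGFβ replicate 2 the log2 changes were -2.00 for *Tfrc* and -1.40 for *Fth1*. Of these mRNAs *Tfrc* carries its hairpins in the 3′ UTR and *Fth1* carries one in the 5′ UTR.

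The light chain mRNA did not pass the test, and its difference had the opposite sign. *Ftl1* (chr7:45457944-45459884, minus strand, ENSMUSG00000050708) measured 499, 545 and 557 CPM in the controls and 597, 537 and 905 CPM with TGFβ. Replicate 2 lay within the control range and replicate 3, the shallowest library, far above the other two. The means were 534 ± 30.7 and 680 ± 197 CPM (SD, n = 3 each), a log2 difference of 0.34 with a 95% interval of -0.07 to 0.76 (edgeR adjusted p = 0.189). The difference was 0.09 without replicate 3 and 0.48 without replicate 2, and it passed the test when genes with low counts were kept in the fit (adjusted p = 0.0316).

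The other 6 members did not pass the test, and 2 of 9 members were called in all, both lower, where 36.5% of the tested genes were called. The median log2 change was -0.27 over the members and 0.02 over all tested genes. *Slc40a1* (ENSMUSG00000025993), the exporter, measured 15.3, 17.4 and 19.1 CPM in the controls and 12.2, 13.1 and 13.4 CPM with TGFβ. The groups did not overlap, but the log2 difference of -0.43 had an adjusted p of 0.0726, and 0.0316 when only library size was scaled. *Slc11a2* (ENSMUSG00000023030), the endosomal and apical iron transporter, had a log2 difference of -0.27 (edgeR adjusted p = 0.0985), which passed without TGFβ replicate 3 (log2 difference -0.36, adjusted p = 0.0254).

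Neither sensor passed the test. *Ireb2* (ENSMUSG00000032293), which encodes the iron regulatory protein that is degraded when iron is plentiful, measured 69.0, 63.1 and 60.2 CPM in the controls and 69.5, 80.2 and 72.7 CPM with TGFβ. These groups were apart by a narrow margin, 69.0 against 69.5 CPM. The log2 difference of 0.21 for *Ireb2* had a 95% interval of -0.02 to 0.44 (edgeR adjusted p = 0.141). *Aco1* (ENSMUSG00000028405), whose protein is either a cytosolic aconitase or, without its iron-sulfur cluster, an iron regulatory protein, had a log2 difference of -0.02 with an interval of -0.39 to 0.36. *Ncoa4* (ENSMUSG00000056234) and *Steap3* (ENSMUSG00000026389) had differences of -0.50 and -0.21, with intervals of -1.25 to 0.26 and -0.80 to 0.39 that also hold sizeable changes.

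In cells that also received NNMTi, TGFβ again lowered *Tfrc* and *Fth1*. *Tfrc* measured 102, 101 and 101 CPM with NNMTi and 38.2, 37.2 and 38.8 CPM in the combined group, with no overlap. It fell 2.66-fold (log2 change -1.41 ± 0.10 SE, edgeR adjusted p = 3.72e-09). *Fth1* measured 1135, 1086 and 1143 CPM with NNMTi and 492, 462 and 458 CPM in the combined group, again with no overlap. It fell 2.38-fold (log2 change -1.25 ± 0.08 SE, adjusted p = 1.17e-09). These 2 of 9 members were called, both lower, where 36.3% of the tested genes were called. *Ftl1* measured 631, 703 and 906 CPM with NNMTi and 907, 1221 and 892 CPM in the combined group, a log2 difference of 0.43 (adjusted p = 0.0991) that passed without NNMTi replicate 3 (log2 difference 0.61, adjusted p = 0.0441). That library held the highest of the 3 NNMTi values.

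**Figure D2:**
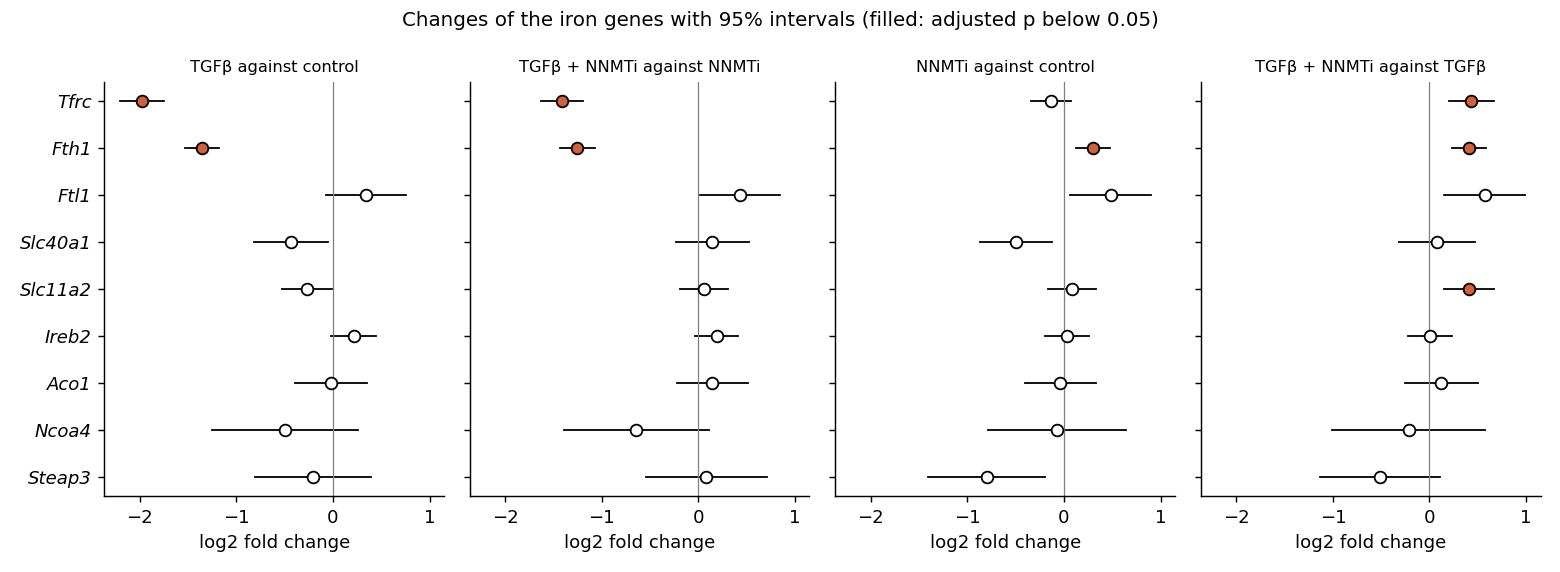
Log2 fold change (x axis) of each iron gene in 4 comparisons, with 95% intervals as lines and filled points where the edgeR adjusted p was below 0.05. *Tfrc* and *Fth1* lie well below 0 in both comparisons of TGFβ, and *Ftl1* lies above 0 in all 4 without a filled point.

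The balance of the ferritin chains differed between cells with and without TGFβ. The count of *Fth1* divided by that of *Ftl1* was 1.61 to 1.87 in the controls and 1.26 to 1.80 with NNMTi. It was 0.384 to 0.690 with TGFβ and 0.378 to 0.542 in the combined group. Thus *Fth1* exceeded *Ftl1* in all 6 libraries without TGFβ and was below it in all 6 with it. The means were 1.71 ± 0.140, 1.54 ± 0.269, 0.552 ± 0.155 and 0.478 ± 0.0878 in the control, NNMTi, TGFβ and combined groups (SD, n = 3 each). The ratio of 2 genes can depend on how well each 3′ end is captured, so its difference between groups is the informative part.

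The sum of both chain mRNAs was lowest with TGFβ alone and highest with NNMTi alone. It averaged 1443 ± 25.7 CPM in the controls, 1868 ± 158 with NNMTi, 1035 ± 190 after TGFβ, and 1477 ± 180 with both agents (SD, n = 3 each). The combined libraries, at 1350 to 1683 CPM, spanned the control range of 1425 to 1472 CPM. By rank among the tested genes, *Fth1* stood at 68 in the controls, 47 with NNMTi, 376 with TGFβ and 243 in the combined group. *Ftl1* stood at 170, 93, 126 and 69 in the same order. The table also held 15 copies and relatives of the ferritin genes. Of these, 11 had no count, and the largest, *Fth-ps3*, had 42 counts over all libraries, of which 15 were in the controls and 24 with NNMTi but 1 after TGFβ and 2 with both agents. How reads shared with such copies were counted is not given in the sources used here. Low counts on the copies therefore cannot show how many reads of *Fth1* or *Ftl1* were affected. The copies were found by symbol, so any under another name are not among the 15.

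**Figure D3:**
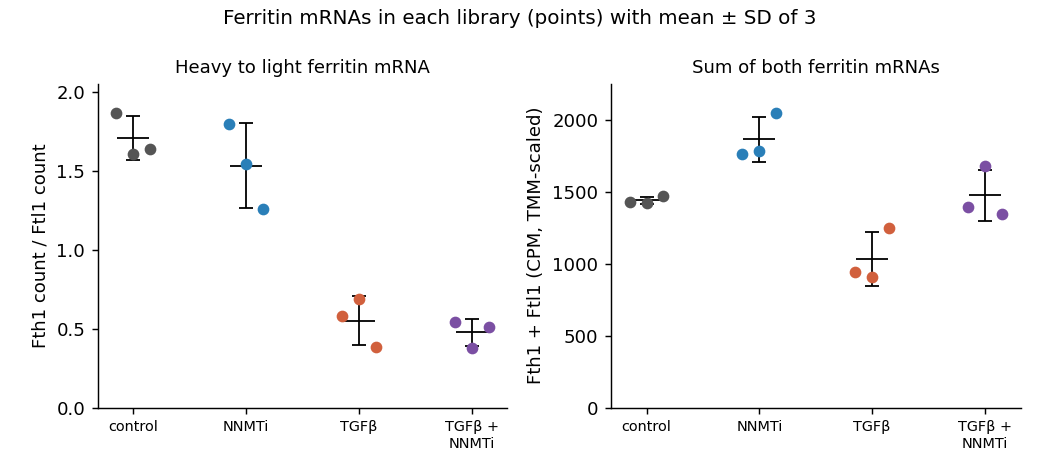
Ratio of the *Fth1* count to the *Ftl1* count (left) and sum of both in CPM (right) in each library, by group. Points are libraries and bars the mean ± SD of 3, and the ratio is above 1 in the 6 libraries without TGFβ and below 1 in the 6 with it.

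With NNMTi alone, *Fth1* was the 1 member that passed the test. It was 1.23-fold higher, at 1121 ± 31.1 against 909 ± 27.0 CPM (SD, n = 3 each), and its groups did not overlap (log2 change 0.30 ± 0.08 SE, edgeR adjusted p = 0.0304). The call ended on leaving out any 1 of the 6 libraries (adjusted p 0.078 to 0.144), when only library size was scaled (0.0769) and without the filter on low counts (0.0702). Thus 1 of 9 members was called, higher, where 8.27% of the tested genes were called. The median log2 change was -0.04 over the members and 0.01 over all tested genes.

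*Ftl1* averaged 747 ± 143 CPM with NNMTi against 534 ± 30.7 CPM in the controls, with no overlap and a log2 difference of 0.48 (edgeR adjusted p = 0.16). It passed without the filter on low counts (adjusted p = 0.00185) and in limma-voom with a variance for each group (0.049). *Tfrc* averaged 101 ± 0.659 CPM, with all libraries below the lowest control, and had a log2 difference of -0.13 with an interval of -0.34 to 0.08 (adjusted p = 0.495). *Slc40a1* measured 11.7, 13.6 and 11.5 CPM with NNMTi, all below the lowest control of 15.3 CPM. Its log2 difference of -0.50 had an adjusted p of 0.0965, and 0.0189 when only these 2 groups entered the fit. *Steap3* measured 6.58, 11.3 and 12.1 CPM in the controls and 6.83, 5.56 and 4.80 CPM with NNMTi. These groups overlapped through 1 control, with a log2 difference of -0.80 (adjusted p = 0.0994, and 0.0122 with only these 2 groups in the fit).

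Adding NNMTi to TGFβ gave higher *Tfrc*, *Fth1* and *Slc11a2* than TGFβ alone. *Tfrc* rose from 27.6 ± 3.46 to 38.1 ± 0.822 CPM (SD, n = 3 each), 1.35-fold (log2 change 0.43 ± 0.11 SE, edgeR adjusted p = 0.0167). The highest TGFβ library, at 30.3 CPM, lay below the lowest combined one, at 37.2 CPM. *Fth1* rose from 355 ± 13.5 to 470 ± 18.5 CPM, 1.32-fold (log2 change 0.41 ± 0.08 SE, adjusted p = 0.00471), again without overlap. Both remained well below control. In the combined group *Tfrc* was 2.92-fold and *Fth1* 1.93-fold lower than in the controls (adjusted p = 1.51e-09 and 5.78e-08).

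*Slc11a2* measured 46.8, 48.9 and 53.5 CPM in the controls, 50.6, 52.5 and 55.0 with NNMTi, 40.9, 36.5 and 48.6 after TGFβ, and 55.7, 50.1 and 58.6 CPM with both agents. The combined group did not overlap TGFβ alone. It rose 1.33-fold over TGFβ (log2 change 0.41 ± 0.12 SE, edgeR adjusted p = 0.0418). The call ended without TGFβ replicate 1 or 2 (adjusted p = 0.0821 and 0.0919) or combined replicate 1 or 3 (0.101 and 0.137). Part of *Slc11a2* lies opposite *Gm5475*, which had 22 counts over all libraries, and the strand used in counting is not given in the sources used here.

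In this comparison 3 of 9 members were called, all higher, where 10.4% of the tested genes were called, with median log2 changes of 0.12 and -0.02. When only the TGFβ and combined libraries entered the fit, none of the 3 passed (adjusted p = 0.129 for *Tfrc*, 0.0758 for *Fth1* and 0.189 for *Slc11a2*), and the log2 changes of 0.46, 0.43 and 0.42 were close to those above. Of all genes, 408 were then called rather than 1416. With a variance for each group in limma-voom, *Fth1* alone passed. Without TGFβ replicate 2, *Tfrc* and *Fth1* passed with log2 changes of 0.45 and 0.44. *Ftl1* had a log2 difference of 0.57 (adjusted p = 0.0798), which was 0.83 without TGFβ replicate 3 (adjusted p = 0.00219) and 0.43 without TGFβ replicate 2 (adjusted p = 0.293). It passed in 3 of 7 other settings, DESeq2 (adjusted p = 0.0319), no filter on low counts (4e-05) and a replicate block (0.0437).

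Against control, the combined treatment gave opposite changes of the ferritin chains. *Ftl1* averaged 1007 ± 186 CPM in the combined group (SD, n = 3), 1.89-fold above the controls (log2 change 0.92 ± 0.19 SE, edgeR adjusted p = 0.00263), and the lowest combined library, at 892 CPM, exceeded the highest control, at 557 CPM. *Fth1* fell over the same groups. In all, 1 of 9 members was higher and 2 were lower, where 31.8% of the tested genes were called. The median log2 change was -0.35 over the members and 0.03 over all tested genes. *Slc40a1* had a log2 difference of -0.35 (adjusted p = 0.14) that passed without combined replicate 3 (log2 difference -0.55, adjusted p = 0.0324). *Steap3* had one of -0.72 (adjusted p = 0.0641) that passed without control replicate 1 (-0.94, 0.0234) or combined replicate 1 (-1.01, 0.0277). It also passed in 4 of 7 other settings, with only these 2 groups in the fit (0.0286), library size only (0.0349), no filter (0.0305) and limma-voom (0.0355). *Ncoa4*, at 6.04 CPM in the controls and 3.64 CPM in the combined group, had a log2 difference of -0.71 (edgeR adjusted p = 0.138). Its groups did not overlap, and it passed in 1 of 7 other settings. This comparison shares its control libraries with those of TGFβ and of NNMTi, and its combined libraries with the 2 comparisons of the combined group.

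Whether NNMTi acted differently with and without TGFβ was tested as an interaction, the log2 effect of NNMTi in TGFβ-treated cells minus that in untreated cells. No member was called at an adjusted p below 0.05 in edgeR, where 1.11% of the tested genes were called. At the looser threshold of an unadjusted p below 0.05 there were 2 members. The share of all genes at that threshold is not given here, so the 1.11% is no measure for them. Nearest to a call was *Tfrc*, with a difference of 0.57 ± 0.15 SE (95% interval 0.25 to 0.88, adjusted p = 0.0836). It passed in DESeq2, with 0.57 and an adjusted p of 0.0152, when only library size was scaled (0.0464) and without TGFβ replicate 2 (0.60, adjusted p = 0.0208). *Slc40a1* had a difference of 0.58 (interval 0.04 to 1.12, adjusted p = 0.426). For *Fth1* and *Ftl1* the differences were 0.10 and 0.09, with intervals of -0.15 to 0.35 and -0.50 to 0.68. The range for *Ftl1* holds differences in either direction.

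The 3 members with the widest range over the group means were *Tfrc* (2.00 on the log2 CPM scale), *Fth1* (1.66) and *Ftl1* (0.90). For each, the tested genes of most similar level profile over the 12 libraries were sought, by the root mean square difference of log2 CPM after centring each gene, among 9161 genes at 10 CPM or more. Nearest to *Tfrc* were *Slc48a1*, which encodes a transporter of haem out of lysosomes, at 0.16, *Vldlr*, a lipoprotein receptor gene, at 0.19, and *Slc35f3* at 0.20. The median gene lay at 0.91. The likeness did not extend to NNMTi alone for *Slc48a1* and *Vldlr*. From the controls to NNMTi, *Slc48a1* averaged 405 and 478 CPM and *Vldlr* 251 and 314, both higher. *Tfrc* averaged 111 and 101 CPM and *Slc35f3* 70.7 and 50.9, both lower. Nearest to *Fth1* were *Nacc2* at 0.08, *Enpp5* at 0.12 and *Appl2*, an endosomal adaptor gene, at 0.12, where the median gene lay at 0.72. *Nacc2* measured 94.0, 114, 37.3 and 46.9 CPM in the control, NNMTi, TGFβ and combined groups, the same order as *Fth1*. Nearest to *Ftl1* were *Nagpa*, which encodes an enzyme of lysosomal targeting, at 0.15, *Fam160b2* at 0.16 and *Xylt2* at 0.16, with a median of 0.47. In the TGFβ group *Nagpa* (94.5 CPM) and *Fam160b2* (76.5 CPM) were also highest in replicate 3, as *Ftl1* was. The libraries are shared by all these genes, so the likeness includes what a library does to all of them.

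Around the 9 members, 87 other genes of iron handling were listed by role, of which 70 passed the filter on low counts. With TGFβ alone 6 of the 70 rose and 20 fell (37.1%, close to the 36.5% of all genes), with a median log2 change of -0.15. In the combined group against NNMTi 9 rose and 20 fell (41.4% against 36.3% of all genes). With NNMTi alone 2 rose and 2 fell (5.71% against 8.27%), and when it was added to TGFβ 4 rose and 4 fell (11.4% against 10.4%). Against control the combined group had 8 higher and 19 lower (38.6% against 31.8%). For the interaction 1 was higher and 1 lower (2.86% against 1.11%). These shares are descriptions, and the list was not tested against other genes. On leaving out each library in turn, an alternative chosen for these genes after seeing the data, 3 to 10 rose and 18 to 23 fell with TGFβ. With NNMTi alone 0 to 1 rose and 0 to 2 fell, and when it was added to TGFβ 2 to 8 rose and 1 to 6 fell.

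Among the genes of iron export and its control, all 3 that were tested, of 9 listed, fell with TGFβ (100%, against 36.5% of all genes called). So small a group was not tested against other genes. *Cp*, whose ferroxidase ceruloplasmin lets ferroportin pass iron on to transferrin, measured 642, 676 and 678 CPM in the controls and 133, 128 and 90.3 CPM with TGFβ, with the lowest value in the shallowest library. It fell 5.62-fold (log2 change -2.49 ± 0.12 SE, edgeR adjusted p = 2.15e-11), and 7.34-fold in the combined group against control. *Bmp6*, a ligand that induces the liver hormone hepcidin, fell 2.21-fold with TGFβ, from 139 to 63.4 CPM. It also fell 1.38-fold with NNMTi alone (adjusted p = 0.0131, a call that ended without 4 of the 6 libraries, each in turn) and 1.92-fold when NNMTi was added to TGFβ (adjusted p = 6.01e-05). It was thus lowest in the combined group, at 32.9 CPM. *Neo1*, a co-receptor gene of hepcidin control, fell from 89.5 to 65.0 CPM with TGFβ (log2 change -0.47, adjusted p = 0.012). Its size rested partly on TGFβ replicate 2, without which it was -0.27 (adjusted p = 0.0344). In the combined group it was 94.1 CPM, 1.45-fold above TGFβ (log2 change 0.54, adjusted p = 0.0171), which was 0.34 without TGFβ replicate 2 (adjusted p = 0.0266) and was no longer called without combined replicate 3 (0.0724).

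Among the genes of uptake, 3 of 8 tested fell with TGFβ and none rose (37.5%, against 36.5% of all genes). *Lrp2*, which encodes megalin, the endocytic receptor of the proximal tubule, measured 107, 106 and 102 CPM in the controls and 77.1, 80.8 and 82.3 CPM with TGFβ. The groups did not overlap. In the combined group it was 122, 119 and 117 CPM, above every other group, and 1.49-fold above TGFβ (log2 change 0.58 ± 0.09 SE, edgeR adjusted p = 0.000372). Its interaction was 0.85 on the log2 scale (adjusted p = 0.00147). *Scara5*, a ferritin receptor gene, fell from 5.03 to 0.959 CPM with TGFβ (edgeR adjusted p = 4.42e-05). It had 39, 42 and 56 counts in the controls but 7, 11 and 3 with TGFβ, near the counting limit. *Lcn2*, whose product binds iron-carrying siderophores, had 29, 26 and 23 counts in the controls, 2, 1 and 7 with NNMTi, 1, 0 and 0 after TGFβ, and 0, 8 and 0 with both agents. *Lcn2* was called lower with TGFβ (edgeR adjusted p = 0.000592) and in the combined group against control. Both of these calls were kept on leaving out each library in turn. It was also called lower with NNMTi alone (adjusted p = 0.0215), and this call ended without 5 of the 6 libraries, each in turn. All treated levels were near the counting limit. *Slc39a14*, a transporter of non-transferrin iron, was not called in any of the 6 comparisons, at 35.0, 35.7, 44.5 and 34.7 CPM in the control, NNMTi, TGFβ and combined groups.

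Of the reductases, *Steap2* fell with TGFβ (348 to 216 CPM) and was 2.02-fold below control in the combined group (log2 change -1.01 ± 0.11 SE, edgeR adjusted p = 5.03e-07). The iron chaperones that load ferritin gave 1 call in the 6 comparisons. *Pcbp1* was not called in any comparison, and *Pcbp2* was called only for the combined group against control (log2 change 0.43, adjusted p = 0.0105), which ended without 4 of the 6 libraries, each in turn. *Fbxl5*, the iron-sensing adaptor that marks iron regulatory protein 2 for breakdown, averaged 64.5, 57.9, 73.9 and 71.8 CPM in the control, NNMTi, TGFβ and combined groups. It was called only for the combined group against NNMTi (log2 change 0.31, adjusted p = 0.0343), which ended without 5 of 6.

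Haem genes went in both directions, 2 up and 4 down of 19 with TGFβ (31.6%, against 36.5% of all genes). *Slc48a1* fell 3.34-fold, from 405 ± 8.45 to 120 ± 16.3 CPM (SD, n = 3 each), and rose 1.40-fold when NNMTi was added (edgeR adjusted p = 0.00739). *Alas1*, the first enzyme of haem synthesis outside the erythroid line, rose with NNMTi alone, from 48.4 to 68.6 CPM (log2 change 0.50, adjusted p = 0.0136). With TGFβ it fell to 31.7 CPM, and in the combined group it was lower still, at 23.2 CPM (adjusted p = 0.0278 against TGFβ). The calls with NNMTi alone and against TGFβ each ended without 4 of the 6 libraries, each in turn. Its interaction was -0.98 on the log2 scale (adjusted p = 0.00839). *Fech*, which inserts iron into the porphyrin ring, fell by 0.64 with TGFβ on the log2 scale, and *Ppox* fell by 0.92. *Abcg2*, an exporter gene of porphyrins among other compounds, rose 2.44-fold with TGFβ, from 18.5 to 44.8 CPM (adjusted p = 4.31e-06). *Hmox1*, the inducible haem oxygenase gene, was called nowhere and measured 13.9, 27.0 and 7.65 CPM with TGFβ against 10.5, 14.2 and 12.4 CPM in the controls.

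Among the mitochondrial and iron-sulfur genes, 3 rose and 6 fell of 27 with TGFβ (33.3%, against 36.5% of all genes). *Slc25a37*, a mitochondrial iron importer gene, rose by 0.52 on the log2 scale. *Nubp1*, a gene of cytosolic cluster assembly, rose by 0.58 over all libraries. The difference was 0.30 and no longer called without TGFβ replicate 2 (edgeR adjusted p = 0.0522). *Iba57* and *Isca1*, late factors of cluster assembly, fell by 1.04 and by 0.86. *Ciao2b*, of the same cytosolic assembly, was the 1 gene of this role called with NNMTi alone (log2 change 0.38, edgeR adjusted p = 0.043), and this call ended on leaving out any 1 of the 6 libraries. Of the 5 tested transcription factor genes 3 fell with TGFβ (60%, against 36.5% of all genes). *Nfe2l2*, whose product NRF2 activates transcription of ferritin and ferroportin genes, measured 184, 184 and 185 CPM in the controls and 69.5, 85.6 and 64.3 CPM with TGFβ, a 2.50-fold decrease (log2 change -1.32 ± 0.12 SE). In the combined group it averaged 74.7 CPM. *Keap1*, which encodes the NRF2 inhibitor, and *Hif1a* also fell, by 0.50 and by 0.54 on the log2 scale, and the *Keap1* call ended without 4 of the 6 libraries, each in turn.

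**Figure D4:**
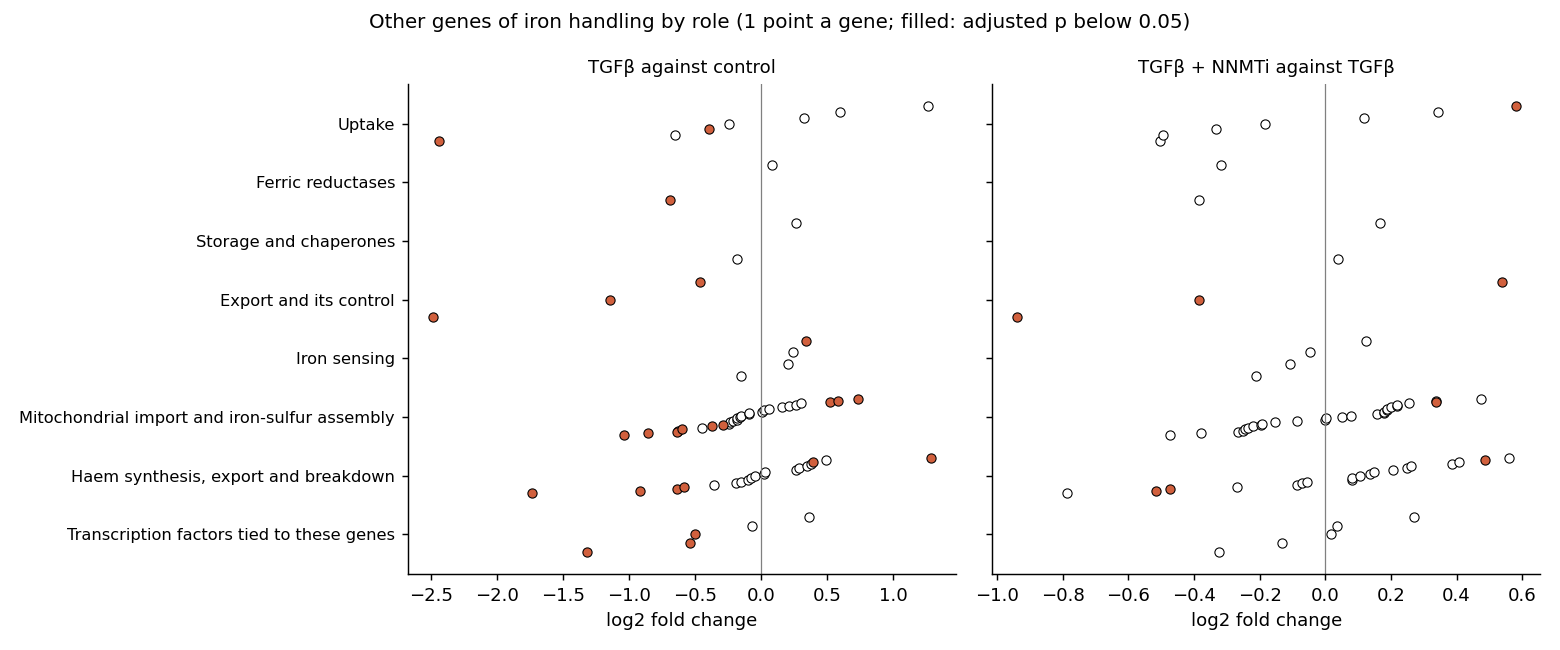
Log2 fold change (x axes, of different span) of the other genes of iron handling, grouped by role (rows), with TGFβ against control and with NNMTi added to TGFβ. Each point is 1 gene and filled points had an edgeR adjusted p below 0.05. *Lcn2*, with 1 count in the TGFβ libraries, is not drawn.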

How the data were processed

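Per the labels' protocols, 100 ng of total RNA was made into QuantSeq 3′ FWD libraries. Per the submitters' processing notes the authors used STAR and HTSeq (versions not given in the sources used here), and they deposited raw counts per gene. The build named there is GRCh38, a human build, although the identifiers are mouse, so positions were taken from GENCODE M21 (GRCm38). Of the table, 5 summary rows were left out, of which reads outside genes made up 21.1 to 26.8% of counts. The labels do not call the replicates separate cultures, so the p-values cover spread between these samples, which may be technical. No pair was a duplicate, and the replicate numbers are not stated to pair the samples.

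After filterByExpr, 13581 genes remained. They were TMM-scaled and tested with quasi-likelihood F-tests in edgeR 4.0.16 (R 4.3.3) over all 12 libraries. The groups share their estimate of spread in this fit, although their spread differed. The common coefficient of variation in edgeR was 0.0657 in the controls, 0.0885 with NNMTi, 0.228 with TGFβ and 0.112 in the combined group. Over all groups it was 0.137, so the SE and p-values do not reflect the spread of each compared group. A call is a Benjamini-Hochberg adjusted p below 0.05 over all tested genes. CPM used TMM-scaled sizes (marker sums, library size alone), and 3 was the prior count for log2 CPM. Alternatives were DESeq2 1.42.0, limma-voom 3.58.1 with a variance for each group, other size factors, library size only, no filter, the compared groups alone, a replicate block and each library left out. Scripts were tested on simulated data. The members, the pathway list and the naming rule were chosen with earlier results of these data known. The rule names all 9 members, the 5 called pathway genes of smallest adjusted p without overlap in each comparison, 7 further genes throughout and the 3 nearest profiles. Other called pathway genes may be named. Results of some genes are left out.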

Additional observations from a re-analysis of the deposited data

How the results depend on the processing

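Over the 9 members and 6 comparisons, 666 of 747 alternative values kept their direction and their side of the threshold, 18 lost the call, 28 gained it and 35 changed sign. The cause was not tested. Each sign change belonged to a difference that was not called. Scaling by library size alone shifted the median of all genes by -0.12 (log2) for the combined group against control, and by less in the other comparisons. Counts of 8 and 15 in TGFβ replicate 3 limit *Ncoa4* and *Steap3*.

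The count of members called with NNMTi alone, 1 as reported, was 3 with the compared groups only, 0 with library size only, 2 without the filter, 4 in voom with a variance for each group and 0 without any 1 library. For the combined group against TGFβ, 3 as reported, it was 0 with the compared groups only and 1 in voom. For TGFβ against control, 2 as reported, it was 4 with library size only, and for the combined group against control, 3 as reported, it was 5 in voom. For the interaction, 0 as reported, it was 1 in DESeq2 and 1 with library size only, and 0 to 1 on leaving out a library. Of all genes, 1123 were called with NNMTi alone, 2931 with the compared groups only, 2732 in voom and 591 to 684 on leaving out a library. For the combined group against TGFβ 1416 were called, 408 with the compared groups only, 862 in voom and 762 to 1938 on leaving out a library. For the interaction 151 were called, 266 in DESeq2, 306 without the filter and 65 to 399 on leaving out a library. For TGFβ against control 2636 of all genes were called higher and 2325 lower. With library size only these were 2144 and 2811. For the combined group against control 4321 were called, and the count in voom is not given here. The 5 members called there in voom therefore cannot be set against a share of all genes.

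With library size only, the log2 difference changed sign to -0.0099 for *Aco1* in the combined group against control, and for *Ireb2* to -0.039 with NNMTi, -0.023 in the combined group against TGFβ and 0.016 for the interaction. In voom that of *Ireb2* in the combined group against TGFβ was -0.0074. On leaving out a library, *Aco1* ranged from -0.16 to 0.012 with NNMTi, from -0.14 to 0.088 with TGFβ, and in the combined group from -0.015 to 0.32 against NNMTi, -0.018 to 0.32 against TGFβ and -0.070 to 0.27 against control. *Ireb2* ranged from -0.013 to 0.087 with NNMTi, -0.044 to 0.10 against TGFβ and -0.080 to 0.088 for the interaction. *Ncoa4* ranged from -0.21 to 0.021 with NNMTi, -0.49 to 0.19 against TGFβ and -0.41 to 0.28 for the interaction. *Slc40a1* in the combined group ranged from -0.036 to 0.27 against NNMTi and -0.087 to 0.22 against TGFβ, *Steap3* from -0.20 to 0.32 against NNMTi, and the *Ftl1* interaction from -0.039 to 0.34.

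Deviations of same-numbered libraries from their group means had correlations of -0.246 to 0.31 over 9165 genes, above 0.1 in 5 of 18 pairs. Differently numbered libraries were not compared in this way, so these values cannot settle whether the numbers pair the samples. With the number as a replicate block, *Aco1* with TGFβ changed to 0.0053 and *Ftl1* in the combined group against TGFβ gained the call (0.60, edgeR adjusted p = 0.0437), so that 4 members were called there. No other member's call changed under the block, and counts over all genes stayed within 1.5 times those reported.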
